A study of Homo sapiens with 13 samples.

Results

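The H3K27ac regions of MDA-MB-231 cells are described here. They are all 41034 rows of the list of positions called from the H3K27ac immunoprecipitation, out of 233691 regions in the lists of the 6 antibodies used, and none was left out. MDA-MB-231, an established line of human triple-negative breast cancer cells of the basal B type, was grown untreated in Dulbecco's modified Eagle's medium with fetal calf serum. The study mapped 5 targets (H3K27ac, H3K4me1, H3K4me3, CTCF and Pol II) from 2 independent libraries apiece, and p300/CBP from 1. Replicates had been merged before regions were called, so each list holds positions with no height and no error between replicates, and its depth is unknown. All groups share this 1 cell line and culture, so no other cell type or treatment was compared.

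Histone H3 is acetylated at lysine 27 mainly by p300 and CBP, the closely related acetyltransferases that transcription factors bring to chromatin. The mark lies on nucleosomes next to active promoters and active enhancers, and bromodomain proteins bind acetylated histones. H3K4me3 is typical of promoters, H3K4me1 of enhancers, Pol II transcribes protein-coding genes and CTCF binds at insulators and loop anchors. Enhancers that lie close together in large acetylated domains are often called super-enhancers, and they are usually ranked by signal, which these lists do not hold. The lists were therefore described by position, width and number alone. Intervals in brackets are 95% Wilson intervals and cover counting error only, and no test was made, since regions are not replicates.

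DNA from the largest clusters of H3K27ac regions is shown first, because it lets the sequence of these elements be read beside the values that follow. For the 6 clusters with the largest summed width, the widest p300/CBP peak inside an H3K27ac region that touched neither an exon nor a promoter window was taken, and 200 bases around its centre are given on the plus strand of hg19. They lie at chr19:39156751-39156950 in an intron of ACTN4, chr20:30307851-30308050 in an intron of BCL2L1, chr17:62703301-62703500 between genes near SMURF2, chr1:94791376-94791575 between genes near ARHGAP29, chr6:56579926-56580125 in an intron of DST and chr15:67442726-67442925 in an intron of SMAD3. None of the 7 motifs searched for below occurred in these 6 windows, so no letter is in capitals. Their GC content ran from 33% in the ARHGAP29 window to 56.5% in the SMURF2 window.
ACTN4: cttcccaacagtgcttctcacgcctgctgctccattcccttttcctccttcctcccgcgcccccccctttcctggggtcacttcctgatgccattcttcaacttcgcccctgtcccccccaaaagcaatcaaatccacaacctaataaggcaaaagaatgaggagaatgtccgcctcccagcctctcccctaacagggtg
BCL2L1: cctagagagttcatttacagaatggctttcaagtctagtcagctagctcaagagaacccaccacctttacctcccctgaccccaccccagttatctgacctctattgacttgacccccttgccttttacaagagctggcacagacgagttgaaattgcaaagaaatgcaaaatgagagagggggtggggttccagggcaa
SMURF2: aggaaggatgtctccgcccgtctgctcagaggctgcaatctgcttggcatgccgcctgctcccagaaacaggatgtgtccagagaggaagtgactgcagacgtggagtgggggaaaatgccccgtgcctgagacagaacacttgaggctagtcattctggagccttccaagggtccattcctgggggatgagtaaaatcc
ARHGAP29: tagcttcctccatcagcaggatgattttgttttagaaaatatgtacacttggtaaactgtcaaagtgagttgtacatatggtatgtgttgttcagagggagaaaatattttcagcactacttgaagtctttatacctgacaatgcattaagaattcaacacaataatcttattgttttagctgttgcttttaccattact
DST: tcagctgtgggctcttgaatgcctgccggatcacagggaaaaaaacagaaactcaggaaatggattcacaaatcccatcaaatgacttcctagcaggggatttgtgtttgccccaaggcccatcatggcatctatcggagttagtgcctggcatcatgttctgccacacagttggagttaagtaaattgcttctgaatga
SMAD3: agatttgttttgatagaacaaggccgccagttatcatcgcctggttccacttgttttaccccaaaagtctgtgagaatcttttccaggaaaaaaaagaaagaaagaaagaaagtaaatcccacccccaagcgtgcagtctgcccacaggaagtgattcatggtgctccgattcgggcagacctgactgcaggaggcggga

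The same 6 clusters held 47 p300/CBP peaks in H3K27ac regions, and 19 of these had the AP-1 motif TGAGTCA, on either strand, in the 300 bases around the peak centre. AP-1 is the dimer of Fos and Jun family proteins. The count was 4 of 8 peaks at ACTN4, 1 of 7 at BCL2L1, 5 of 10 at SMURF2, 4 of 6 at ARHGAP29, 1 of 7 at DST and 4 of 9 at SMAD3. The match nearest to the centre of a peak is shown for each cluster in 100 bases with the motif in capitals. These were chosen because they hold the motif, so its presence in them is no finding. In the SMAD3 and BCL2L1 windows the match lay 2 bp and 9 bp from the peak centre, and in the DST window 81 bp from it. The windows are chr19:39127769-39127868, chr20:30284017-30284116, chr17:62676096-62676195, chr1:94736460-94736559, chr6:56578282-56578381 and chr15:67383728-67383827 of hg19, plus strand. The BCL2L1, ARHGAP29, DST and SMAD3 windows lie within the annotated bodies of those genes and touch no exon, and the ACTN4 and SMURF2 windows lie outside protein-coding genes. The ARHGAP29 window is upstream of the canonical TSS of that gene.
ACTN4: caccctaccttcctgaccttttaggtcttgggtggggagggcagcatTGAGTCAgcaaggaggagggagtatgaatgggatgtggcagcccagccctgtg
BCL2L1: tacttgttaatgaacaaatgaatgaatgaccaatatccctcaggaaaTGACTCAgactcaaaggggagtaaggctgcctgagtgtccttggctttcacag
SMURF2: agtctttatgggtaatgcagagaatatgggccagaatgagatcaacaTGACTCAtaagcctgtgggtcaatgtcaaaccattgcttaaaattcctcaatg
ARHGAP29: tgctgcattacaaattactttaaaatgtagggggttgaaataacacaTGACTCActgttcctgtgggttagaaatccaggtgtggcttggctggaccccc
DST: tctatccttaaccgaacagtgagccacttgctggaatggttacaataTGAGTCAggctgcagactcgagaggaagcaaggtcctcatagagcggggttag
SMAD3: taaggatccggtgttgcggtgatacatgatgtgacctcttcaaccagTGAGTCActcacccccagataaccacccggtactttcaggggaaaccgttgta

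The regions were between 200 bp and 37000 bp wide. The median width was 1300 bp and the middle 50% of regions spanned 600 bp to 2250 bp. Together they covered 70.97 Mb, or 2.50% of the determined sequence of chromosomes 1 to 22 and X. The authors kept bins over a signal of 50 that ran for at least 150 bp and joined them across gaps of up to 500 bp, and no 2 listed regions lay closer than 500 bp. The list was shorter than that of H3K4me1 (88319 regions, median 1200 bp) and longer than that of H3K4me3 (24693 regions, median 1150 bp), which were called with a lower threshold of 30. Regions of 1000 to under 2000 bp were the largest class, with 29.98% of the list [29.5% to 30.4%]. Regions under 500 bp made up 19.4% of the list and 3.36% of its bases, and those of 2000 to under 5000 bp made up 26.4% of the list and 44.6% of its bases. There were 1572 regions of 5000 to under 10000 bp and 230 of 10000 bp or more. The widest 10% of the regions held 32.2% of all H3K27ac bases.

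Width went with what else was found on a region. A promoter window is here the 3 kb centred on the transcription start site (TSS) of the canonical transcript of a protein-coding gene, and regions that touch none are called distal. Promoter windows were touched by 12.9% of regions under 500 bp, 45.6% of those of 2000 to under 5000 bp and 38.7% of those of 10000 bp or more. The share of distal regions with a p300/CBP peak rose over the 6 width classes from 1.78% through 3.21%, 14.1%, 43.5% and 76.6% to 95.04%. A wide region has more bases in which to meet a peak, so the number of peaks per length was also taken. Each peak that shared at least 1 bp was counted, so peaks across an edge raise this density more in narrow regions. How much they add was not tested. In distal regions it was 7.15 p300/CBP peaks per 100 kb of H3K27ac under 500 bp, 5.41 at 500 to under 1000 bp, 11.2 at 1000 to under 2000 bp, and then 18.3, 19.5 and 18.6 in the widest classes. For CTCF the same density fell from class to class, from 43.1 peaks per 100 kb in the narrowest to 3.91 in the widest distal regions, although the share of regions with a CTCF peak was 12.6% in the former and 37.6% in the latter. Pol II overlapped 9.08% of the narrowest and 92.2% of the widest distal regions, and H3K4me3 16.9% and 86.5%.

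**Figure D1:**
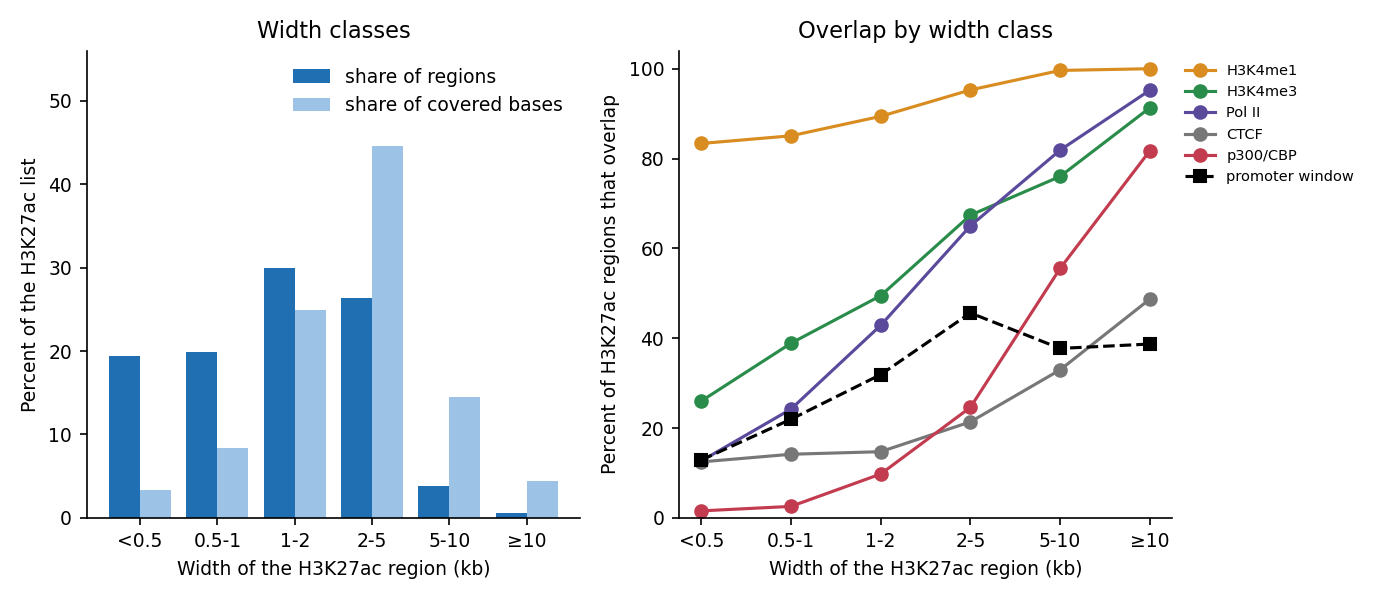
Left, share of the 41034 H3K27ac regions and of their bases (percent) in 6 classes of width (kb). Right, share of the regions of each class (percent) that overlap each other list by at least 1 bp, or a promoter window; p300/CBP rises from 1.55% to 81.7%, while the promoter share peaks at 45.6% in regions of 2 to 5 kb.

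Peaks of p300/CBP also had a place within the regions. In distal regions of at least 2000 bp, 81.0% [79.9% to 82.1%] of 4754 p300/CBP peak centres lay in the middle 50% of the region's width. For Pol II this was 76.9% of 3274 peaks, and for CTCF 50.2% [47.6% to 52.9%] of 1368 peaks, close to the 50% of the width that this part takes. Over each whole list the median peak width was 150 bp for p300/CBP, 850 bp for Pol II and 300 bp for CTCF. The part of peak width in these shares was not tested.

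A TSS lay inside 8209 regions, or 20.01% of the list. A further 9.46% ended within 1 kb of a TSS and 6.06% between 1 and 5 kb from one. The distances of 5 to 50 kb held 32.3% of the regions and those of 50 to 500 kb 29.4%, and 1113 regions (2.71%) lay farther away. The median distance from the edge of a region to the nearest TSS was 18418.5 bp over all regions and 43407.5 bp over the 28678 distal ones. Promoter windows were touched by 30.1% of H3K27ac regions [29.7% to 30.6%]. The same share was 49.3% for H3K4me3, 39.9% for Pol II, 16.7% for H3K4me1, 9.16% for CTCF and 1.27% for p300/CBP, so H3K27ac stood between the promoter mark and the enhancer mark. The centres of distal regions fell in introns in 46.7% of cases, in exons in 6.19% and outside protein-coding genes in 47.1%, where gene bodies take 45.9% of the determined sequence.

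The company of the mark changed with distance. H3K4me3 overlapped 99.01% of the regions with a TSS inside, 95.5% of those within 1 kb, 42.8% at 1 to 5 kb, 29.6% at 5 to 50 kb, 23.6% at 50 to 500 kb and 31.4% farther away. Pol II overlapped 96.4%, 59.8%, 37.6%, 26.5%, 15.7% and 19.05% over the same 6 classes, so both shares were higher beyond 500 kb than at 50 to 500 kb. H3K4me1 was least frequent within 1 kb of a TSS, at 67.8%, and was found on 94.5% of the regions at 5 to 50 kb. The share with p300/CBP rose from 2.68% at a TSS to 13.8% at 5 to 50 kb, 21.5% at 50 to 500 kb and 32.7% farther away. Another count left out regions on Y and those less than 5 Mb from their chromosome's longest undetermined stretch. This exclusion, chosen after the data had been seen, gave 26.4% with p300/CBP in the farthest class. The H3K4me3 and Pol II shares beyond 500 kb were not recounted in this way. Of the promoter regions, 97.1% carried H3K4me3, 83.9% Pol II and 2.43% p300/CBP. Of the distal regions, 94.0% carried H3K4me1, 28.0% H3K4me3, 22.4% Pol II and 17.3% p300/CBP. Among all regions 576 (1.40%) overlapped neither methylation mark, with a median width of 300 bp. Seen from the other lists, 81.5% of H3K4me3 regions, 63.8% of Pol II, 49.3% of p300/CBP, 40.3% of H3K4me1 and 19.7% of CTCF regions overlapped H3K27ac. The lists were called with other thresholds and joining distances. Their labels name background subtraction for the histone marks and p300/CBP, but not for Pol II or CTCF. The part of these differences in the shares was not tested. The p300/CBP list used here held 13984 peaks. The paper describes a smaller set of p300/CBP peaks. The reason for this, and its part in the p300/CBP shares and densities given here, were not tested.

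**Figure D2:**
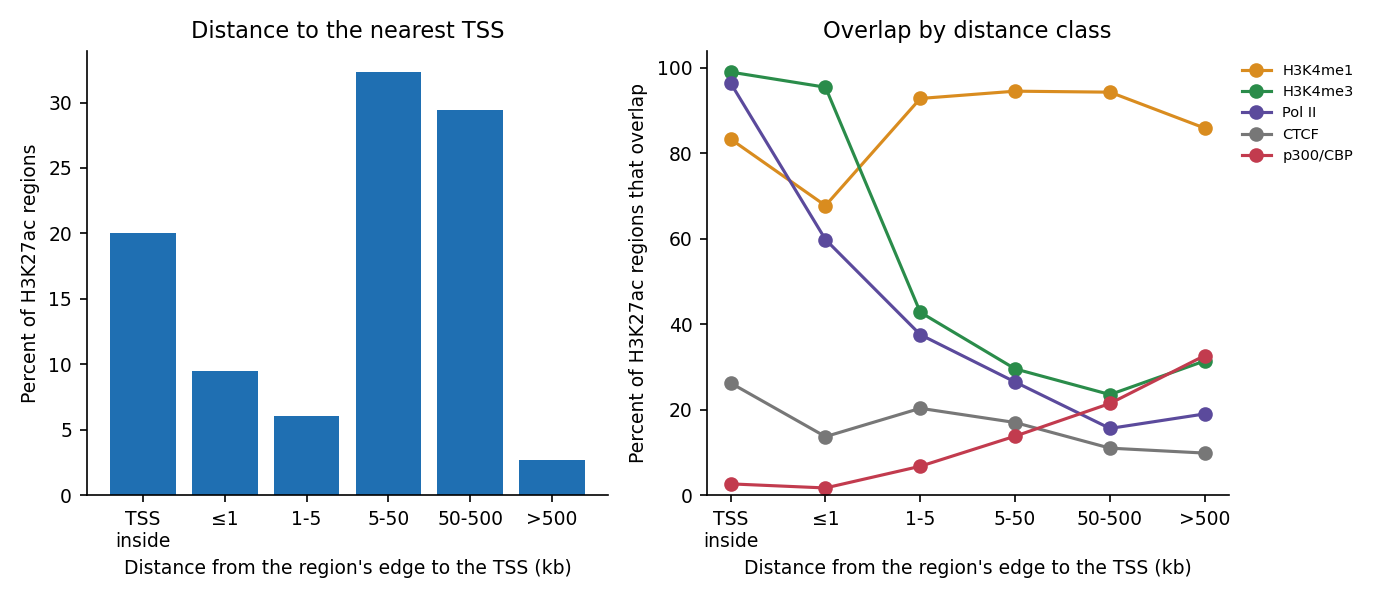
Left, share of the 41034 H3K27ac regions (percent) by distance from the region's edge to the nearest protein-coding TSS (kb). Right, share of the regions of each distance class (percent) that overlap each other list; H3K4me3 and Pol II fall up to 50 to 500 kb and are higher again beyond, at 31.4% and 19.05%, p300/CBP rises to 32.7% beyond 500 kb and H3K4me1 is lowest, at 67.8%, within 1 kb. Regions near undetermined stretches and on Y are included.

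Around a TSS the mark reached farther into the gene than away from it. In the 7055 regions with exactly 1 TSS inside, the median extent was 813 bp upstream and 1283 bp downstream, and the downstream side was the longer in 75.6% of them [74.6% to 76.6%]. Another 1061 regions held 2 TSSs and 93 held 3 or more. The most, 5, lay in 1 region of 8150 bp at chr6:27775001-27783151, with the replication-dependent histone genes H2BC13, H2AC13, H3C10, H2AC14 and H2BC14, which encode core histones.

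Density per chromosome followed gene density. Chromosome 19 had 33.6 regions per Mb of determined sequence, chromosome 17 had 26.9, chromosome 22 had 23.6 and chromosome 20 had 20.7. Among chromosomes 1 to 22 and X the lowest were X with 6.08, chromosome 4 with 9.29 and chromosome 18 with 9.40, and the highest value was 5.53 times the lowest. Over chromosomes 1 to 22 and X (n = 23) regions per Mb and TSSs per Mb had a Pearson r of 0.93 and a Spearman coefficient of 0.85, and r was 0.85 without chromosomes 19 and 17, which lie farthest out in TSS density. For distal regions alone both coefficients were 0.77, and r was 0.68 without chromosomes 19 and 17. The chromosomes share the libraries, and their copy number in these cells was not measured here, so these are descriptions. On chromosome X 43.5% of promoter windows were marked, the lowest share of these 23, where 61.5% of all 19881 windows were. Chromosome Y listed 26 regions, or 1.13 per Mb, of which 0 touched a promoter window and 26 overlapped H3K4me1, with a median width of 525 bp. The p300/CBP list was denser there than on any other chromosome, at 11.5 peaks per Mb. Whether chromosome Y is present in these cells was not tested.

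**Figure D3:**
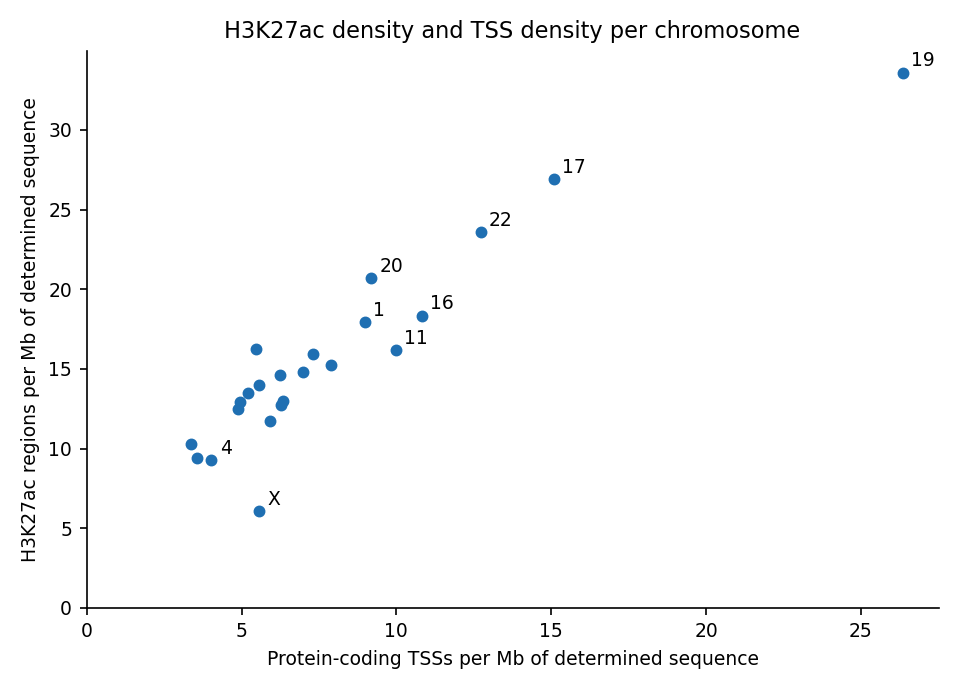
H3K27ac regions per Mb against protein-coding TSSs per Mb of determined sequence, 1 point for each of chromosomes 1 to 22 and X; chromosome 19 is at the top with 33.6 regions per Mb, and X lies lowest, at 6.08.

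Within chromosomes the spread was wider. Of 2637 complete stretches of 1 Mb, 211 held no H3K27ac region, the median was 11 and the most was 77, at chr19:1000001-2000000. The densest 10% held 29.4% of the regions. Some dense stretches had few genes. The stretch chr20:49000001-50000000 held 70 regions with 8 TSSs, and chr1:94000001-95000000 held 64 regions with 6 TSSs and the most covered bases of the 10 densest, 210.4 kb. The gap from 1 region to the next had a median of 17.7 kb, and 318 gaps exceeded 1 Mb.

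Of the longest stretches without the mark, 4 are described. The longest, 5.72 Mb at chrX:30908251-36628201, holds 7 TSSs, among them that of the muscle gene DMD, and lies between GK and H2AL1Q. On chromosome 9, 4.98 Mb at chr9:7799801-12775051 between KDM4C and MPDZ hold PTPRD, TYRP1 and LURAP1L. The stretch at chr9:20732601-25677151 (4.94 Mb), between MLLT3 and CAAP1, holds 23 TSSs, of the type I interferon genes, MTAP and the cell cycle inhibitors CDKN2A and CDKN2B among others. The stretch at chr13:53425951-58066651 (4.64 Mb) lies between PCDH8 and PCDH17 and holds OLFM4 and the PRR20 genes. The CTCF list had 14 peaks in the DMD stretch, 14 in the PTPRD stretch and 15 in the OLFM4 stretch. In the interferon and CDKN2A stretch it had 1, beside 2 H3K4me1 regions, 0 H3K4me3 regions and 0 Pol II regions. Whether that DNA is present in these cells was not tested.

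Regions were joined into clusters where the gap to the next was at most 12.5 kb. This left 14537 regions alone (35.4%) and put 26497, or 64.6% [64.1% to 65.0%], into 8953 clusters, which held 67.1% of the H3K27ac bases. Most clusters were small: 7870 had 2 to 4 regions, 976 had 5 to 9 and 107 had 10 or more. The last held 1260 regions (3.07%) and 4.26% of the bases, with a median span of 66.5 kb, of which a median of 38.8% was covered by the mark. A promoter region was part of 74.8% of the clusters of 10 or more and of 47.7% of those of 2 to 4. The distance used matters much for this count, since joining within 5 kb gave 7 clusters of 10 or more and joining within 25 kb gave 403.

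Distal regions in larger clusters carried Pol II more often. The share was 17.2% for regions alone, 21.4% in clusters of 2 to 4, 32.6% in clusters of 5 to 9 and 40.7% in clusters of 10 or more. Their median width also went up, from 950 bp to 1300 bp. A single Pol II region can overlap several H3K27ac regions of a cluster. The cluster at BCL2L1 held 3 Pol II regions, and 9 of its 10 H3K27ac regions overlapped Pol II. The shares and intervals count each H3K27ac region separately, and the effect of this was not tested. Among distal regions of 1000 to under 2000 bp alone, a comparison chosen after the data had been seen, Pol II was on 20.1% of 3002 regions alone [18.7% to 21.6%] and on 29.9% of 224 in clusters of 10 or more [24.3% to 36.2%]. For p300/CBP the order turned with width. Over all widths the distal share went from 14.8% alone to 21.9% in clusters of 10 or more, and at 1000 to under 2000 bp it was 14.9% [13.7% to 16.2%] alone and 8.93% [5.85% to 13.4%] in such clusters. The cluster at chr10:42356551-42418451 had 18 regions, each with H3K4me3, p300/CBP and Pol II, and its nearest TSS, that of ZNF33B, was 715.568 kb away. This cluster held far more p300/CBP peaks than any of the 20 clusters with the largest summed width, where the most was 12. Whether these overlaps come from the way reads map to this DNA was not tested. Without regions within 5 Mb of the longest undetermined stretches and on Y, the distal shares in clusters of 10 or more were 37.6% for Pol II and 19.1% for p300/CBP.

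The 20 clusters with the largest summed width held 247 regions and 1.38% of all H3K27ac bases, on 11 chromosomes, and 48 protein-coding genes overlapped them. Their summed widths ran from 40.25 kb to 70.55 kb, and the next cluster had 40.15 kb, so the lower end of this ranking is not a sharp border. Of these 20, 11 were also among the 20 longest by span and 8 among the 20 with the most regions.

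The largest cluster, at chr19:39109001-39225801, had 15 regions that summed to 70.55 kb over 116.8 kb and overlapped ACTN4, the gene of the actin cross-linker alpha-actinin 4, with EIF3K, MAP4K1 and CAPN12. Its widest regions, of 24150 bp and 19050 bp, lay at the start and in the body of ACTN4, and 13 of its 15 regions overlapped Pol II. The cluster at chr6:56534551-56637751 had 12 regions and 58.15 kb, all inside DST, the gene of the cytoskeletal linker dystonin, with the gene's canonical TSS 181.878 kb away and a widest region of 27300 bp. The clusters at MICAL2 (14 regions, 44 kb), ABLIM3 (13 regions, 43.65 kb) and MYOF with CEP55 (4 regions, 44.7 kb) lay at genes of an actin-oxidising enzyme, an actin-binding LIM protein and the membrane protein myoferlin. The collagen gene COL13A1 had 11 regions and 46.8 kb, and the calpain gene CAPN2 had 9 regions and 42.4 kb. At AMOTL2, which encodes an angiomotin family protein, 7 regions summed to 41.45 kb. The MICAL2 cluster touched no promoter window and its nearest TSS was 46.064 kb away, while those of COL13A1, CAPN2, MYOF and AMOTL2 held the gene's start.

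BCL2L1, which encodes the anti-apoptotic protein BCL-XL, lay with TPX2 in the second cluster (chr20:30248901-30329901, 10 regions, 66.2 kb), of which 81.7% of the span was covered. Of its regions, 9 of 10 overlapped Pol II. SMURF2, a ubiquitin ligase of the TGF-beta pathway, had the third (chr17:62618851-62737601, 16 regions, 64.45 kb), and SMAD3, a transcription factor of the same pathway, the sixth (chr15:67356201-67444901, 11 regions, 50.45 kb). Of the SMAD3 regions 1 touched the promoter window and 10 lay along the gene, with p300/CBP on 5. ARHGAP29, which encodes a GTPase-activating protein, had the fourth (chr1:94695801-94801501, 15 regions, 58.85 kb), of which 1 touched its promoter window. ERRFI1, a feedback inhibitor of the EGF receptor, had 11 regions and 42.55 kb, and TRAM2 had 20 regions and 42.85 kb. The cluster at chr1:95044451-95139451 had 16 regions and 43.75 kb, overlapped no protein-coding gene and had its nearest TSS at F3, the tissue factor gene, 37.136 kb away.

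**Figure D4:**
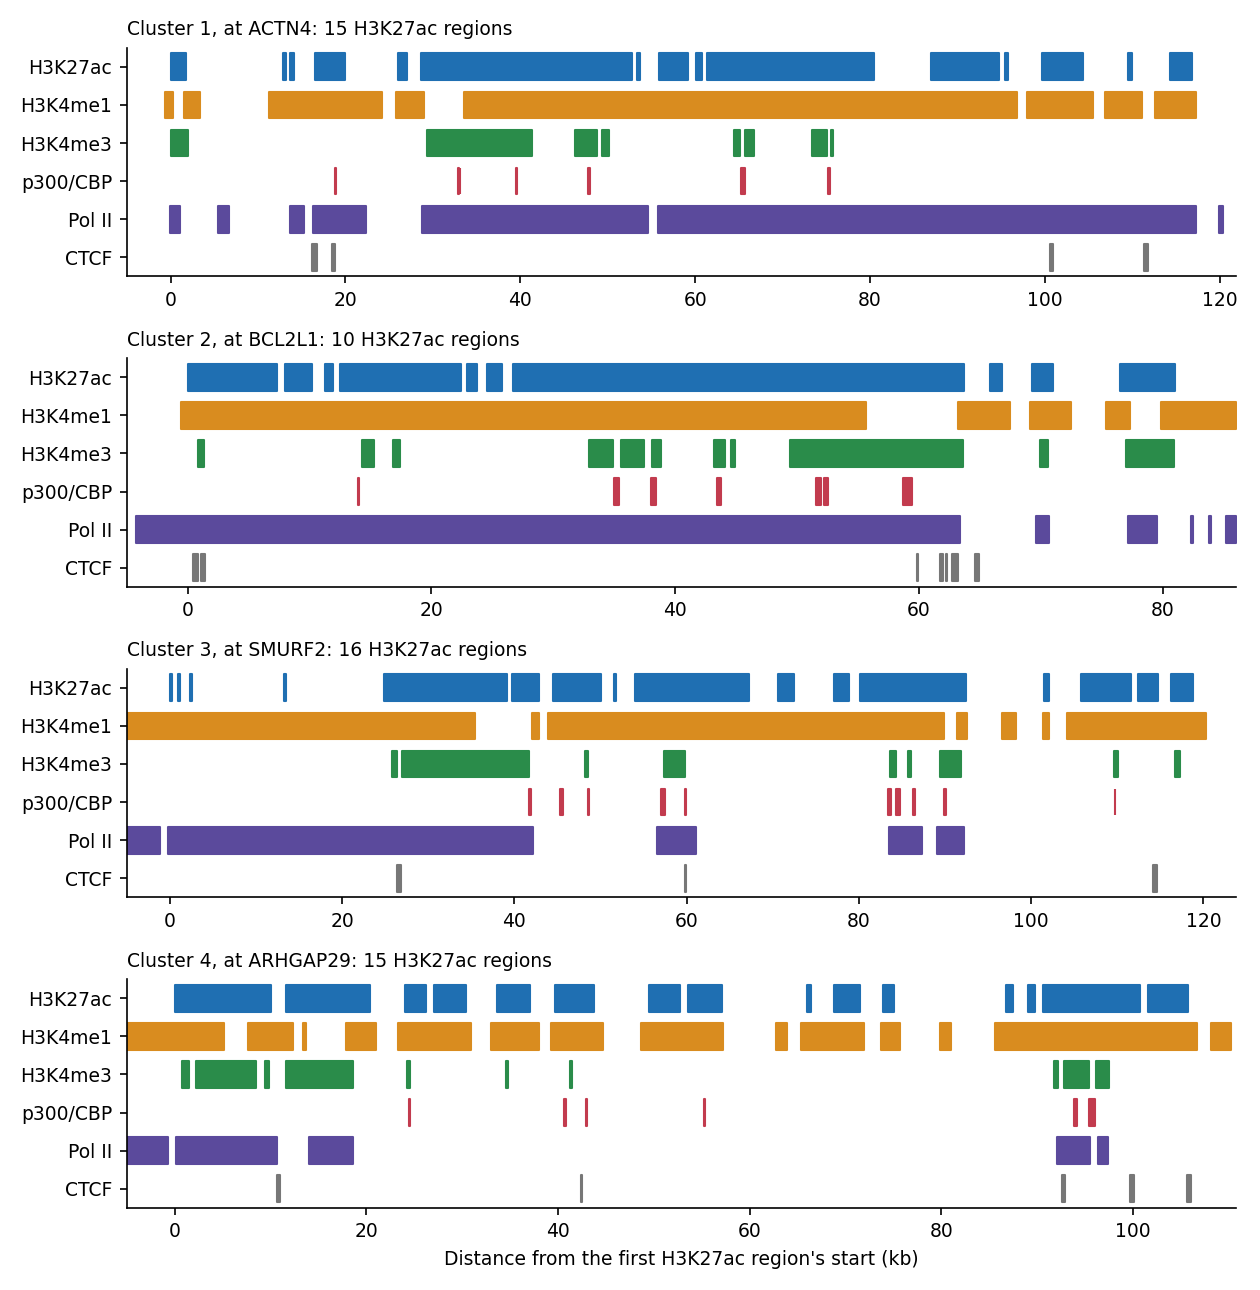
Regions of the 6 lists along the 4 clusters with the largest summed H3K27ac width, from 5 kb before to 5 kb after each cluster; the x axis is the distance from the start of the first H3K27ac region (kb) and each bar is 1 listed region. At ACTN4 13 of 15 and at BCL2L1 9 of 10 H3K27ac regions overlap Pol II, at ARHGAP29 3 of 15.

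Of the 20 clusters, 3 overlapped 8 or more protein-coding genes. The cluster at chr11:746451-848751 had 11 regions (42.3 kb) over 12 genes, TALDO1, RPLP2, CD151 and TSPAN4 among them, and 8 of its regions touched promoter windows. That at chr17:8020801-8127701 had 15 regions (42.05 kb) over 8 genes with PER1, VAMP2 and AURKB, and that at chr11:62305551-62390451 had 10 regions (40.25 kb) over 8 genes with AHNAK, EEF1G and MTA2. These held 1, 0 and 2 p300/CBP peaks, where the other 17 held from 2 to 12.

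Besides the cluster near F3, 2 of the 20 clusters overlapped no protein-coding gene, and both lay along long non-coding RNA genes. The cluster at chr8:128842551-128944901 had 19 regions (48.6 kb) in the body of PVT1, all 19 with H3K4me1 and 6 with p300/CBP, and the nearest protein-coding TSS, that of the transcription factor gene MYC, was 94.074 kb away. The cluster at chr11:122006851-122074401 had 8 regions (47.65 kb) along MIR100HG, the host gene of miR-100 and let-7a-2, and all 8 overlapped Pol II.

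The widest single regions repeated some of these sites. The 37000 bp region at chr20:30275601-30312601 covered the start of BCL2L1, with 6 p300/CBP peaks and 54.2% of its bases in H3K4me3 regions. Regions of 27850 bp at MYOF, 27300 bp in DST and 24150 bp at ACTN4 were also in the largest clusters. RHOF with SETD1B had 23500 bp, UQCC1 had 23000 bp and NT5E, which encodes the ectonucleotidase CD73, had 22450 bp. The region of 28000 bp at chr7:130577251-130605251 lay at the long non-coding RNA gene LINC-PINT, and one of 22800 bp at chr1:59600551-59623351 lay 139416 bp from the TSS of FGGY. The regions in DST, at UQCC1 and near FGGY, which contain no canonical TSS, had 9.71%, 15.9% and 10.3% of their bases in H3K4me3 regions. The 5 that contained such a TSS had 54.2% to 63.4%. The LINC-PINT region had 85.2%, without a protein-coding TSS.

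The second widest region lay on chromosome X at chrX:45606451-45636651. It was 30200 bp wide, 546330 bp from the nearest protein-coding TSS, with 75.7% of its bases in H3K4me3 regions and 6.79% in H3K4me1 regions. The annotation places there MIR222HG, the host transcript of miR-221 and miR-222. The region began inside the hairpin of MIR222 (chrX:45606421-45606530, minus strand), of which it covered 80 bp, and MIR221 (chrX:45605585-45605694, minus strand) lay 757 bp beyond its edge. The mature sequences, from RefSeq on GRCh38.p14, are given because they are the named small RNAs at the widest regions and at the MIR100HG cluster, with the seed (bases 2 to 8) in capitals. miR-221-3p and miR-222-3p share the seed GCUACAU. At the MIR100HG cluster the hairpins lay between regions, MIRLET7A2 (chr11:122017229-122017301, minus strand) 29 bp and MIR100 (chr11:122022937-122023016, minus strand) 4437 bp from the nearest one. Their seeds differ from each other and from that of miR-221-3p and miR-222-3p. miRNA levels were not measured here.
hsa-miR-221-3p: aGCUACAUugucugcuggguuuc
hsa-miR-222-3p: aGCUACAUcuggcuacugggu
hsa-miR-100-5p: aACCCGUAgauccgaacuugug
hsa-let-7a-5p: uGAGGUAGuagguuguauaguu

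Sequence composition split promoter from distal regions. In the 300 bases at the centre of a region the median GC content was 61% at promoter regions and 46.3% at distal ones, against 39.7% in 55093 windows set every 50 kb outside H3K27ac regions. The median CpG ratio, observed over expected from base content, was 0.682, 0.220 and 0.170. Exact matches on both strands were counted for 7 motifs: AP-1 (TGAGTCA), CRE (TGACGTCA), TEAD (CATTCCA), ETS (CCGGAAGT), GC box (GGGGCGGGG), RUNX (TGTGGTT) and E-box (CAGGTG). No motif is contained in another, but neighbouring matches may overlap. At promoter regions the GC box was in 10.9% of windows and the ETS motif in 2.82%, against 1.63% and 0.426% at distal regions and 0.314% and 0.127% outside. At distal regions the AP-1 motif was in 18.8% [18.4% to 19.3%], against 3.76% at promoter regions and 4.39% outside. TEAD was in 7.93% and RUNX in 7.09% of distal windows, against 5.52% and 5.82% outside. The E-box was in 20.1% of distal and 20.7% of outside windows.

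Where in the region the window was placed changed the AP-1 share. Around the centres of the 6452 p300/CBP peaks in distal H3K27ac regions it was 44.4%, and TEAD and RUNX were in 14.9% and 14.99%. Around the 6820 p300/CBP peaks outside H3K27ac regions the AP-1 share was 13.1% [12.3% to 13.9%]. In 100 bp steps, AP-1 matches reached 2.31 per kb in the central 200 bp of the former peaks and 0.199 per kb at 1500 to 2000 bp. At the centres of distal H3K27ac regions the density was 0.627 per kb under 1 kb of width, 1.10 at 1 to under 2 kb and 0.578 at 2 kb or more. By class of width the share of distal regions with a match at the centre was 6.46% under 500 bp, 25.02% at 500 to under 1000 bp, 27.2% at 1000 to under 2000 bp, 16.6% at 2000 to under 5000 bp and 9.196% at 5000 bp or more. It was 21.4% in distal regions alone and 14.6% in those of clusters of 10 or more. Whether the p300/CBP peaks outside H3K27ac regions belong to the smaller set that the paper describes was not tested. A match is a description of letters and not a bound site.

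**Figure D5:**
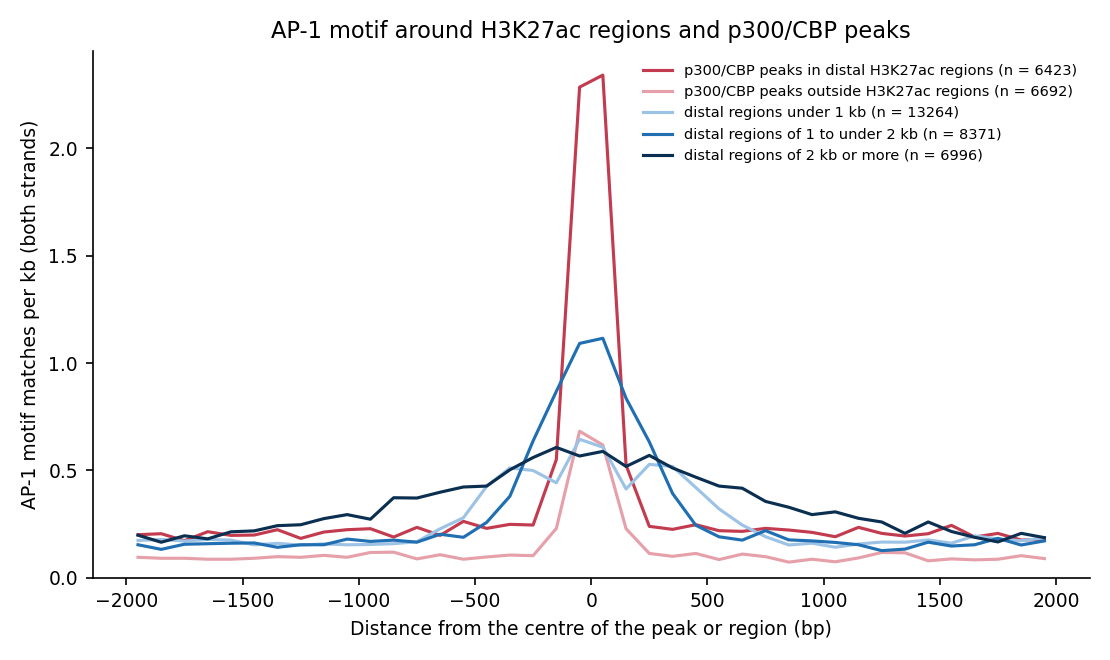
AP-1 motif matches per kb (both strands, bins of 100 bp) against distance (bp) from the centre of p300/CBP peaks in or outside H3K27ac regions and of distal H3K27ac regions in 3 classes of width. The curve for p300/CBP peaks in distal H3K27ac regions has the highest and narrowest maximum, 2.31 per kb in the central 200 bp, and regions of 2 kb or more the broadest.

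Promoter windows gave a view by gene. An H3K27ac region touched 12218 of 19881 windows, or 61.5%, and the widest region at a marked window had a median of 2100 bp, the quartiles being 1400 bp and 3000 bp. TSSs in clusters of 10 or more regions numbered 230, or 1.16% of all. Mesenchymal and basal B genes, markers of the labelled cell type, were marked in 29 of 32 cases, with a median width of 4100 bp. The widest were at the integrin gene ITGA3 (22350 bp), the receptor kinase gene AXL (13700 bp), the matricellular gene CCN1 (11400 bp) and PLAU, the gene of urokinase (10050 bp). The intermediate filament gene VIM had 9700 bp, and CDH2, TWIST1 and ETS1 were not marked. The nearest H3K27ac region lay 26707 bp from the CDH2 TSS, 42348 bp from that of ETS1 and 107859 bp from that of TWIST1. Regions in the gene body numbered 8 at ETS1, 2 at CDH2 and 0 at TWIST1.

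Genes of the luminal and epithelial list were marked in 16 of 30 cases, or 53.3%, beside the 61.5% of all windows, with a median width of 2075 bp. Among those not marked were the hormone receptor genes ESR1 and PGR, the luminal regulator GATA3, the adhesion genes CDH1 and EPCAM, and GRHL2, OVOL1, RAB25, ST14, PRLR and TFF3. Of these, ESR1 and CDH1 had 5 regions in the gene body, GATA3, GRHL2 and PRLR 4, EPCAM 2 and ST14 1. PGR, OVOL1, RAB25 and TFF3 had 0. Keratin genes of this list were marked, with 10450 bp at KRT19, 6250 bp at KRT18 and 5900 bp at KRT8, and so were the regulators FOXA1 (3300 bp), XBP1 (2800 bp), SPDEF (700 bp) and ELF3 (400 bp). Of the claudin genes CLDN7 (5800 bp) and CLDN4 (650 bp) were marked and CLDN3 was not, and of the splicing regulators ESRP2 (2050 bp) was and ESRP1 was not. The receptor genes ERBB2 (1650 bp) and ERBB3 (2100 bp) and the mucin gene MUC1 (3750 bp) were marked as well. Of the 25 matched genes of other lineages, GFAP and CDH5 were marked and 23 were not, among them PTPRC, ALB, HBB and MYOD1. The nearest H3K27ac region ended or began 1588 bp from the TSS of APOA1 and 148270 bp from that of MS4A1. For PTPRC this distance was 2431 bp, and 5 regions lay in its gene body. Presence of the mark was read for each gene and says nothing of RNA, which was not measured here.

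All 17 genes of the Fos, Jun and partner list were marked, beside 61.5% of all windows. The widest region at their windows had a median of 2350 bp, where it was 2100 bp over all marked windows. FOSL1, which encodes Fra-1, had the widest region of the list, 18150 bp, which lay upstream of its TSS at chr11:65668201-65686351. The FOSL1 TSS lay inside no region, and another region was nearer to it, 159 bp away. JUN had 7150 bp, JUNB 6400 bp, FOSL2, which encodes Fra-2, 5550 bp and FOS 3350 bp. BATF had the narrowest, 300 bp. FOSB, JUND and MAFG lay in clusters of 14, 10 and 12 regions, where 1.16% of all TSSs lay in clusters of 10 or more. Of the 32 genes of the histone acetylation machinery 30 were marked, beside the same 61.5% of all windows, with a median width of 1775 bp. EP300 and CREBBP, the genes of p300 and CBP, had 2200 bp and 600 bp, and the bromodomain gene BRD2 had 9900 bp. HDAC9 and the germline gene BRDT were not marked. HDAC9 had 10 regions in its gene body and BRDT had 0.

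Promoter DNA of a marked gene is shown for the mesenchymal and basal B list and for the Fos, Jun and partner list, since promoter and distal composition differ. For each list it is the member with the widest region whose 200 bases before the TSS lie inside that region and touch no exon. These were AXL (chr19:41724928-41725127 of hg19, plus strand, 64.5% GC, 2 CpG) and JUNB (chr19:12902100-12902299 of hg19, plus strand, 71.5% GC, 25 CpG). Capitals mark the E-box motif in the AXL sequence, and the 7 motifs had no match in the JUNB sequence.
AXL: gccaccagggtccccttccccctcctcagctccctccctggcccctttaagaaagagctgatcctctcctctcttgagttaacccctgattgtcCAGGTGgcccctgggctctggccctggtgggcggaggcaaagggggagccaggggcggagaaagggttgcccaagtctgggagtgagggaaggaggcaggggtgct
JUNB: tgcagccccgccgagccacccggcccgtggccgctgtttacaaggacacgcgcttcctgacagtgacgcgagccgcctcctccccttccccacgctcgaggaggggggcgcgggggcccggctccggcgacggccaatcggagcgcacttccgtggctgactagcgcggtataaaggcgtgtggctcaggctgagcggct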

How the data were processed

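Per the labels and the study's methods, the authors sequenced immunoprecipitated chromatin, aligned reads to hg19 with BWA-backtrack (the submitters' processing notes name Bowtie2), turned uniquely mapped reads into a signal per 50-bp bin (PASHA), scaled it, subtracted background, merged 2 replicates and called H3K27ac regions by thresholding. The deposited lists give only start and end positions in bp, with no count or score, so depth per sample is unknown. 0 columns were left unmapped. Every end was taken as the first base after the region, and coordinates are printed as listed. The tools were NumPy 2.4.6, SciPy 1.17.1 and matplotlib 3.10.9 under Python 3.11.15. Against brute force on simulated intervals the functions gave 0 wrong answers in 8200. Genes came from GENCODE release 44 on GRCh37 and sequences from that genome. Overlap needed 1 bp. Shares have 95% Wilson intervals. Members, gene lists and alternatives were chosen with earlier results of these data known. Named genes are those overlapping the 20 largest clusters by summed width (or the nearest TSS), those at the 10 widest regions, those flanking the 5 longest stretches without the mark and without an undetermined run over 50 kb, and list members with the widest or no region. Genes inside those stretches, long non-coding RNA and miRNA genes and the sequences picked for the AP-1 motif or a promoter were added after their values had been seen. PECAM1 was not matched. A few genes and 1 of those stretches are not reported here. Input libraries were not used here.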

Additional observations from a re-analysis of the deposited data

How the results depend on the processing

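No paired analysis was possible because each list came from merged libraries, and none could be left out singly. A stricter signal threshold needs heights, so regions at least as wide as the median stood in for it. This left 20558 regions, a promoter share of 41.2%, a median TSS distance of 9759 bp, 45.2% of regions in clusters of 2 or more and 19.6% of distal regions with the AP-1 motif, and with every list so reduced the overlaps were 82.2% with H3K4me1, 49.9% with H3K4me3, 16.97% with p300/CBP, 13.8% with CTCF and 38.2% with Pol II. Asking that at least 50% of a region be covered gave 68.1%, 40.1%, 0.300%, 2.19% and 18.0% in the same order. All TSSs of basic transcripts gave a promoter share of 33.0% and a median distance of 13186.5 bp, the 10 kb window 35.5%, and centres of regions 27.9% and 19176.5 bp. Regions in clusters of 2 or more made up 45.3% when joined within 5 kb, 78.2% within 25 kb and 58.9% with promoter regions left out, and clusters of 10 or more numbered 7, 403 and 41. The 20 largest clusters shared 11 with the ranking by span and 8 with that by number of regions. The AP-1 share in the central 500 bp was 28.0%. With 10 kb windows 6 genes of other lineages were marked instead of 2. All TSSs of basic transcripts gave 30 marked mesenchymal and basal B genes instead of 29. They gave 18 luminal and epithelial genes instead of 16, and 31 histone acetylation genes instead of 30. Alternatives chosen after the data had been seen left out regions near the longest undetermined stretches and on Y, which gave 101 clusters of 10 or more, p300/CBP on 16.8% of their regions (19.2% with all) and on 19.1% of their distal regions, Pol II on 37.6% of the latter, and p300/CBP on 26.4% of regions over 500 kb from a TSS. At 1000 to under 2000 bp the distal shares in clusters of 10 or more were 8.93% for p300/CBP and 29.9% for Pol II. Of the 50 alternatives, 36 moved a share or median distance outside its interval, or a count by more than 1.5 times. The other 14 did not, the 101 clusters and the gene counts with all TSSs among them. The causes of these shifts were not tested. Without heights, depths or replicates, no value here has an error beyond counting.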
